A study of Mus musculus with 8 samples.

Results

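The 10 genes described here encode regulators of G protein signalling (RGS proteins): Rgs2, Rgs3, Rgs4, Rgs5, Rgs10, Rgs11, Rgs12, Rgs14, Rgs16 and Rgs19, out of 20254 genes in the expression table. They were chosen by name with their mutant and control levels in these libraries already known, so their own values are given as a description and without a test. The libraries hold polyadenylated RNA of nephron progenitors, the self-renewing cap mesenchyme cells from which the epithelium of the nephron arises, sorted by GFP from collagenase-digested mouse kidneys at embryonic day 17.5. In 4 libraries the cells were homozygous for loss of the ubiquitin ligase subunit Vhl (VHLNP-/-, mutants 1 to 4), and in 4 they were heterozygous (VHLNP+/-, controls 1 to 4). All 8 carried the Six2EGFPcre transgene, in which Six2, a transcription factor of these progenitors, drives a fusion of GFP and Cre recombinase. The controls therefore carry Cre, GFP and 1 inactivated Vhl allele too, and the sort selects cells by GFP alone, which can outlast Six2 expression. The series compares homozygous with heterozygous loss of Vhl to ask how it bears on the metabolism and differentiation of these cells.

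Heterotrimeric G proteins carry signals from receptors at the cell membrane. An activated receptor loads the G alpha subunit with GTP, and the signal ends when G alpha hydrolyses it. RGS proteins bind active G alpha and speed that hydrolysis, so they shorten or weaken the signal. They fall into subfamilies. The R4 proteins (here Rgs2, Rgs3, Rgs4, Rgs5 and Rgs16) are mostly small and act on Gi and Gq subunits. Proteins of the R12 subfamily (Rgs10, Rgs12 and Rgs14) act on Gi subunits, and Rgs12 and Rgs14 are large scaffolds. Rgs19 belongs to the RZ subfamily. Rgs11 belongs to the R7 subfamily, whose members act on Gi and Go subunits, need the unusual G beta subunit Gnb5 for their stability and are best known from neurons and the retina.

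Rgs11 lies on the plus strand of chromosome 17 (chr17:26202951-26211324, GRCm38, the assembly also called mm10). Its annotated body overlaps Arhgdig, a gene on the minus strand (chr17:26199183-26207786). The genes share 4836 bp, of which 138 bp are exonic in both, or 3.28% of the annotated exons of Rgs11. These bases lie in exons 12 and 13 of the main coding transcript of Rgs11, which has 17 exons and 2006 nt with 1398 nt of coding sequence. The 138 shared bases stand against 2006 nt of this transcript and 1566 bp of annotated Arhgdig exons. The sources used here do not say whether reads were counted by strand. Reads from these bases therefore cannot be assigned to 1 of the genes with certainty, and both exons are shown for that reason. The sequences come from the GENCODE M21 transcripts, 5′ to 3′ on the plus strand, exon 12 at chr17:26207546-26207659 and exon 13 at chr17:26207759-26207874, with capitals marking the bases that an exon of a noncoding Arhgdig transcript covers on the other strand.
Rgs11 exon 12: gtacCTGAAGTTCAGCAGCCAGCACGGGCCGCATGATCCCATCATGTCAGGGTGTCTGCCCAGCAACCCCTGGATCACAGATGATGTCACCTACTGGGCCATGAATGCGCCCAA
Rgs11 exon 13: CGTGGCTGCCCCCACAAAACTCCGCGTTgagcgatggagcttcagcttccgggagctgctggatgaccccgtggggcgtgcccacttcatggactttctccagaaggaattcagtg
Of exon 12, 110 of 114 bases are shared, and of exon 13, 28 of 116.

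The libraries held 37.3 to 46.5 M (mega) reads assigned to genes in mutants and 41.2 to 43.9 M in controls. Levels below are normalised reads, which are reads divided by the authors' size factor of the library. Every log2 fold change is the mutant mean minus the control mean of log2(normalised reads + 1), a scale that makes changes of rarely read genes look smaller. A gene was tested when 4 or more libraries had 10 or more normalised reads for it, and it was called at a limma adjusted p under 0.05, Benjamini-Hochberg over all 15381 tested genes. Of these 1297 were called, 831 higher (5.4%) and 466 lower (3.03%) in mutants. Scaling by total reads gave 747 higher and 797 lower, and quantile normalisation gave 757 higher and 666 lower. Vhl averaged 318 ± 23.2 normalised reads in mutants and 1225 ± 107 in controls (SD, n = 4 each). The log2 fold change was -1.94 (SE 0.08, limma adjusted p = 4.22e-08), and an exact permutation test (two-sided, 70 relabellings) gave p = 0.0286, the smallest value this design allows. Six2 was at 24101 ± 2213 in mutants and 25540 ± 2806 in controls (SD, n = 4 each), and the summed level of 11 nephron progenitor markers was 113479 to 122637 in mutants and 115783 to 127501 in controls. Of those markers Gdnf was higher past the call rule, and Osr1, Meox1 and Tmem100 were lower past it. None of the marker genes of 5 other cell types was at 0 in any library. Whether the 4 libraries of a genotype come from separate embryos or pools is not in the labels, so the p-values reflect a spread that may be technical. Mutant 2 and control 3 deviated together from the means of their genotypes (correlation across genes 0.57, genes not being independent).

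Rgs11 stood far from the other RGS genes in its difference between the genotypes. Its level was 859, 874, 1071 and 869 normalised reads in mutants 1 to 4, against 82.5, 73.6, 75.1 and 68.2 in controls 1 to 4. Every mutant library was more than 10 times as high as every control library. The means were 918 ± 102 in mutants and 74.9 ± 5.89 in controls (SD, n = 4 each), a log2 fold change of 3.60 (SE 0.11) or 12.1-fold. Behind these values stand 907, 942, 1064 and 758 recovered reads in mutants 1 to 4 and 85, 75, 72 and 71 in controls 1 to 4. Within a group the libraries were close: the coefficient of variation was 11.1% in mutants and 7.86% in controls. Among all tested genes, Rgs11 ranked 14 by log2 fold change.

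Of the 10 genes, 9 passed the filter on low values and were part of the fit, and Rgs14 did not pass it. The call rule was met by 2 of the 9, Rgs11 above and Rgs3 below the controls, where 8.43% of all tested genes met it (5.4% higher and 3.03% lower). For Rgs11 and Rgs3 the mutant and control libraries did not overlap, as they did not for 15.3% of all tested genes. Since this contrast was known when the genes were chosen, nothing is read from these counts. Without Rgs11, the largest absolute log2 fold change was 0.36, that of Rgs4, with a standard error of 0.89. Over the 9 genes, 4 log2 fold changes were positive and 5 negative, with a median of -0.09, against -0.01 over all tested genes.

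**Figure D1:**
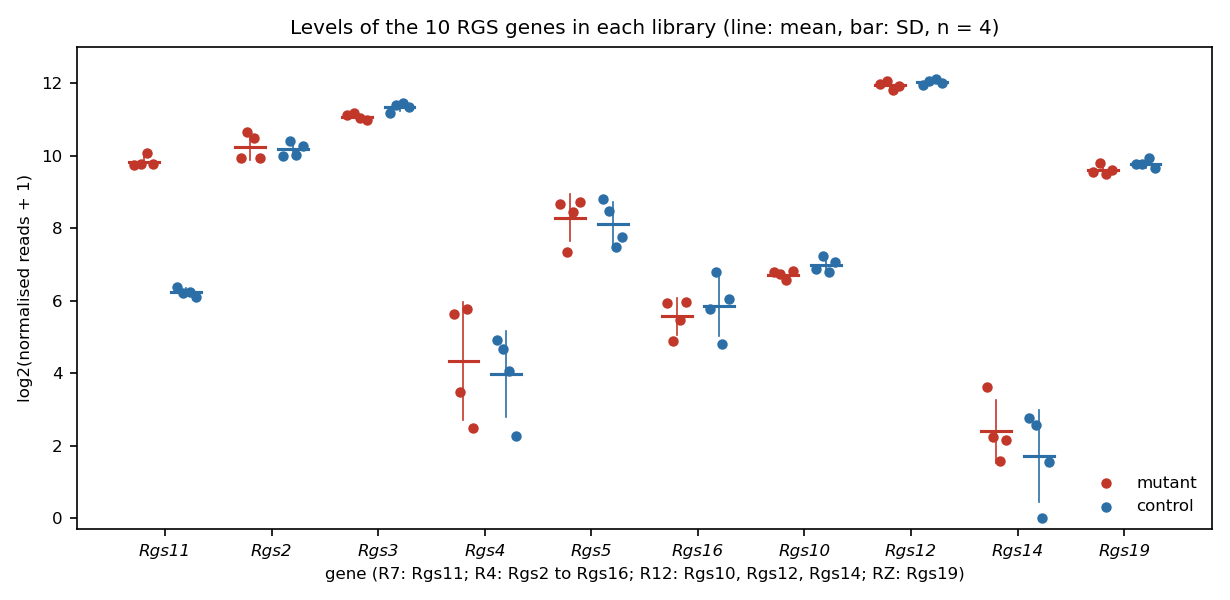
Level of each of the 10 RGS genes in each library, as log2(normalised reads + 1), with mutants in red and controls in blue; lines are means and bars SDs of 4 libraries. The red and blue points of Rgs11 are far apart (918 against 74.9 normalised reads on average), while those of Rgs2, Rgs4, Rgs5, Rgs10, Rgs12, Rgs14, Rgs16 and Rgs19 overlap.

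The genes next to Rgs11 had far smaller differences. Arhgdig had 188, 180, 161 and 199 normalised reads in mutants 1 to 4, against 124, 144, 111 and 125 in controls 1 to 4. The groups did not overlap, and the rise was 1.44-fold (log2 0.53, SE 0.13, limma adjusted p = 0.0243). Mutant 3, the highest of the mutants for Rgs11, was the lowest of them for Arhgdig, at 161 against 180 to 199. Such an order within the mutants cannot show how many reads the genes share. The Arhgdig call was lost in 5 of 8 fits that left out 1 library, with adjusted p up to 0.0914 (without mutant 1, 2 or 4, or without control 3 or 4). It was also lost without control 3 and mutant 2 together (0.107), without control 2 and mutant 2 together (0.0658) and with the deposited values as they are (0.0552). How far reads of one gene enter the value of the other was not tested. Pdia2, a disulfide isomerase gene 3864 bp before the start of Rgs11, was below the filter, at 7.30 ± 2.58 in mutants and 9.12 ± 4.56 in controls (SD, n = 4 each). Fam234a, listed under its older symbol Itfg3 and ending 498 bp beyond Rgs11, was at 1823 ± 91.8 in mutants and 1887 ± 68.5 in controls (SD, n = 4 each, limma adjusted p = 0.647). Axin1, a scaffold of the beta-catenin destruction complex that itself has an RGS domain, lies 7140 bp before Rgs11 and was at 4231 ± 349 in mutants and 4349 ± 203 in controls (SD, n = 4 each, limma adjusted p = 0.764).

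**Figure D2:**
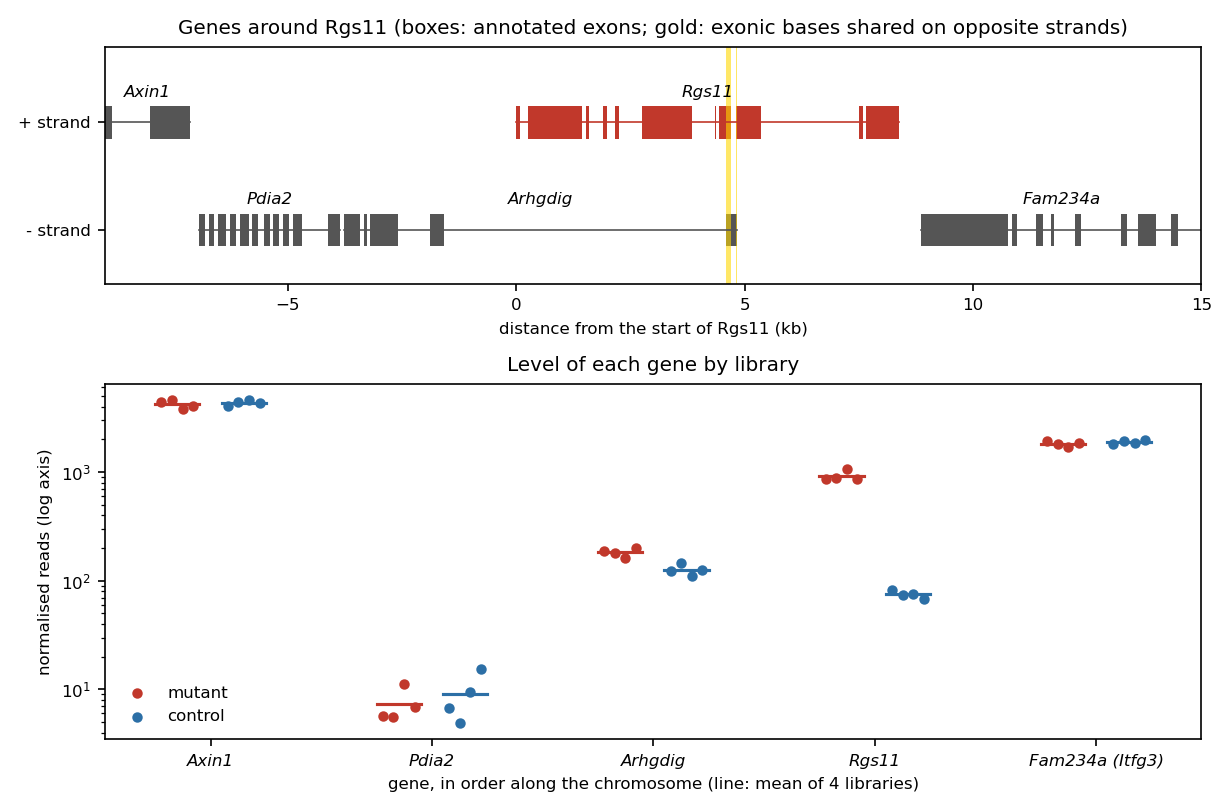
Top, annotated exons of Rgs11 and its neighbours by strand, as distance in kb from the start of Rgs11, with the 138 exonic bases that Rgs11 and Arhgdig share in gold; bottom, normalised reads of each gene by library on a log axis, mutants in red left of controls in blue, with lines at the mean of 4 libraries. Rgs11 is the gene whose red and blue points are widely separated, Arhgdig shows a small separation (182 against 126 on average), and Axin1, Pdia2 and Fam234a overlap.

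Rgs11 was compared with the rest of the R7 subfamily, since these proteins share a partner and targets. Rgs9, which in the retina ends the light response, was at 781, 807, 901 and 848 normalised reads in mutants 1 to 4, against 1031, 811, 1000 and 888 in controls 1 to 4. The groups overlapped, and the log2 fold change was -0.16 (SE 0.09, limma adjusted p = 0.311). Rgs6 had 44.5, 38.9, 21.1 and 34.4 in mutants 1 to 4, against 52.4, 49.1, 53.2 and 67.2 in controls 1 to 4. Every mutant was below every control for Rgs6, but the log2 fold change of -0.70 (SE 0.24) did not pass the test (limma adjusted p = 0.106). Rgs7 was below the filter, at 5.27 ± 3.22 in mutants and 3.65 ± 3.07 in controls (SD, n = 4 each).

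Per kb of annotated exon, where levels of different genes can be set side by side, Rgs11 led the R7 genes in mutants and Rgs9 led them in controls. Rgs11 was at 218 ± 24.3 normalised reads per kb in mutants and 17.8 ± 1.40 in controls, and Rgs9 was at 131 ± 8.18 in mutants and 146 ± 15.9 in controls (SD, n = 4 each). As a share of the R7 sum per kb, Rgs11 made up 61.4%, 61.4%, 63.9% and 60.1% in mutants 1 to 4, against 10.5%, 11.7%, 9.94% and 9.96% in controls 1 to 4. The share of Rgs9 was 37.0 ± 1.34% in mutants and 85.8 ± 0.932% in controls (SD, n = 4 each). The R7 sum was 353 ± 30.5 normalised reads per kb in mutants and 170 ± 17.0 in controls, and without Rgs11 it was 135 ± 7.0 in mutants and 152 ± 16.1 in controls (SD, n = 4 each). These sums follow from the known difference of Rgs11 and are given as a description.

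**Figure D3:**
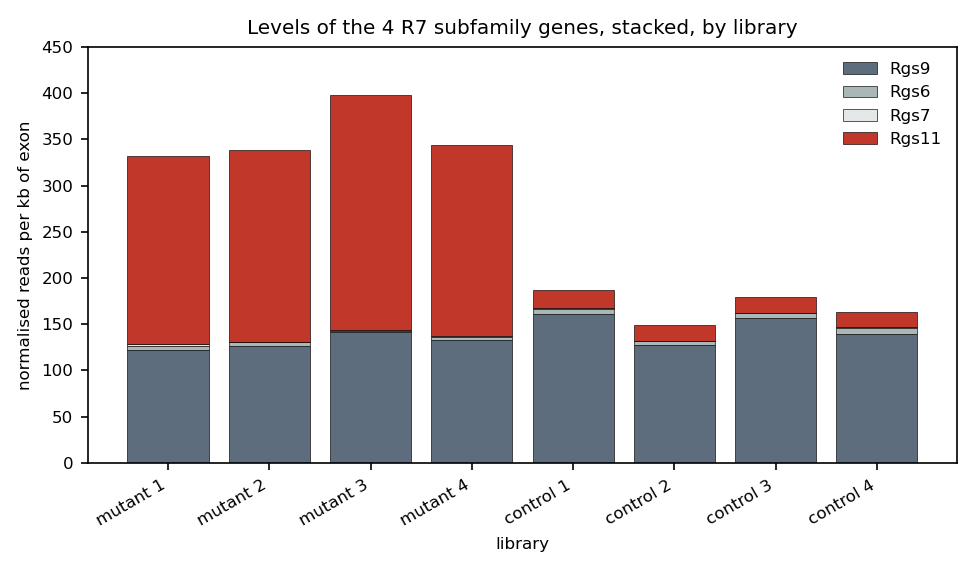
Normalised reads per kb of annotated exon for the 4 R7 genes, stacked, in each library, mutants on the left. The red part, Rgs11, is the larger part of each mutant bar (60.1% to 63.9%) and a small part of each control bar (9.94% to 11.7%), while the dark part, Rgs9, lies between 122 and 161 in all 8 bars.

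Transcripts of the known R7 partners were measured from a fixed list of 5 genes. Of these, 4 were tested, limma called 0, and 0 had an unadjusted p under 0.05. Gnb5, the obligate G beta partner of R7 proteins, was at 1025 ± 30.7 normalised reads in mutants and 976 ± 18.2 in controls (SD, n = 4 each, log2 0.07, SE 0.06, limma adjusted p = 0.494). Gpr179, an orphan receptor that anchors R7 complexes in retinal bipolar cells, was low, at 20.8 ± 7.27 in mutants and 14.2 ± 5.71 in controls (SD, n = 4 each, limma adjusted p = 0.387). The genes of the membrane anchors were also low: Rgs7bp averaged 28.3 in mutants and 25.7 in controls, and Rgs9bp averaged 72.1 in mutants and 71.2 in controls (limma adjusted p = 0.857 and 0.977). Gpr158, another R7-binding receptor, was below the filter. The median log2 fold change of the 4 tested partners was 0.10.

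Of the 5 R4 genes in the set, Rgs3 was the most abundant in normalised reads and Rgs4 the least. Rgs3, whose protein can also bind G beta-gamma, had 2212, 2297, 2112 and 2016 normalised reads in mutants 1 to 4, against 2339, 2683, 2783 and 2616 in controls 1 to 4. The highest mutant lay just under the lowest control. The log2 fold change was -0.27 (SE 0.07), so mutants were at 83.0% of the control level. Rgs3 no longer met the call rule without mutant 3, without mutant 4, without control 2, 3 or 4, without control 3 and mutant 2 together, without control 2 and mutant 2 together, or with the deposited values as they are. An antisense transcript, Gm11209, is annotated within Rgs3 and shares no exonic base with it.

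Rgs2, which acts mainly on Gq, had 983, 1609, 1427 and 977 normalised reads in mutants 1 to 4, against 1019, 1361, 1046 and 1241 in controls 1 to 4. The groups overlapped, with a log2 fold change of 0.07 (SE 0.18). Rgs16 had 60.6, 28.7, 43.3 and 61.9 in mutants 1 to 4, against 53.4, 110, 27.1 and 65.3 in controls 1 to 4. Its highest and lowest values were both in controls, and the log2 fold change was -0.29 (SE 0.40). An annotated antisense gene, Gm28513, covers 236 bp or 10.09% of the exons of Rgs16.

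Rgs5, a gene used as a marker of pericytes, had 408, 162, 345 and 421 normalised reads in mutants 1 to 4, against 444, 354, 179 and 214 in controls 1 to 4. Rgs4 had 48.3, 10.2, 53.4 and 4.59 in mutants 1 to 4, against 29.1, 24.5, 15.7 and 3.84 in controls 1 to 4. Both genes spread widely within each genotype, and their log2 fold changes were smaller than their standard errors: 0.17 (SE 0.40) for Rgs5 and 0.36 (SE 0.89) for Rgs4. The coefficient of variation of Rgs5 was 35.7% in mutants and 41.3% in controls, while that of Rgs11 was 11.1% in mutants and 7.86% in controls.

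Levels of these genes were set beside markers of other cells that a sorted suspension can hold. The summed level of 9 kidney stroma markers (among them Foxd1, Pdgfra, Col1a1 and Col3a1) was 45146, 22062, 35886 and 37183 normalised reads in mutants 1 to 4, against 56277, 37501, 26269 and 32551 in controls 1 to 4, and 0 of the 9 were called. Mutant 2 and control 3 had the lowest sums of their genotypes, and the same libraries had the lowest Rgs5 and the lowest Rgs16. The endothelial sum (2031 in mutant 2, 1456 in control 3) and the macrophage and leukocyte sum (689 and 595) were lowest there too. Gene by gene, only 3 of the 10 endothelial and 1 of the 11 macrophage and leukocyte markers were lowest in both libraries. The podocyte sum was lowest in mutant 4 and control 3. The nephron progenitor sum was the highest of its genotype in mutant 2 (122637) and in control 3 (127501). So were Rgs3 (2297 and 2783), Rgs12 (4270 and 4480) and Rgs19 (890 and 973) in mutant 2 and control 3. The stroma sum was highest in mutant 1 and control 1, Rgs5 in mutant 4 and control 1, and Rgs16 in mutant 4 and control 2. Rgs4 was lowest in mutant 4 and control 4. Without mutant 2 and control 3 the log2 fold changes were 0.27 (SE 0.24) for Rgs5, -0.41 (SE 0.28) for Rgs16, 0.67 (SE 1.09) for Rgs4 and 3.62 (SE 0.13) for Rgs11. Pdgfrb, a receptor gene of pericytes, had 1677, 1094, 1451 and 1549 in mutants 1 to 4, against 1801, 1533, 1004 and 1283 in controls 1 to 4. It too was lowest in mutant 2 and control 3, as were Kcnj8, Abcc9 and Acta2, which makes 4 of the 10 pericyte and mural markers in the table; the other 6, Tagln, Myh11, Cspg4, Notch3, Des and Mcam, were not lowest in both. Of the 9 stroma markers 7 were lowest in both libraries. The 10 pericyte and mural markers together summed to 24146 to 25896 in mutants and 23096 to 24584 in controls, lowest in mutant 3 and control 4, a sum made up largely of Notch3 and Des; Notch3 rose and Mcam fell in mutants (limma adjusted p = 0.0029 and 0.00932). In bulk RNA, fewer cells of a type and less RNA per cell cannot be told apart. The part of other cells in the values of Rgs3, Rgs4, Rgs5, Rgs12, Rgs16 and Rgs19 was not tested.

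**Figure D4:**
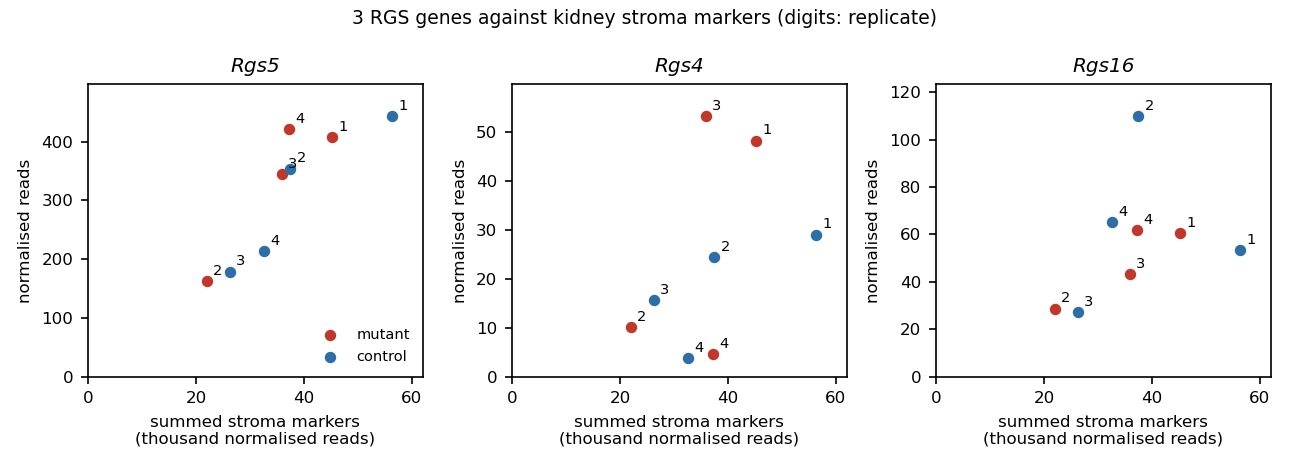
Normalised reads of Rgs5, Rgs4 and Rgs16 in each library against the sum of 9 kidney stroma markers (axis in units of 1000 normalised reads), mutants in red and controls in blue, with the replicate number beside each point. Mutant 2 and control 3 are the 2 points furthest to the left in each panel and are the lowest of their colours for Rgs5 and Rgs16, but not for Rgs4.

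The other marker lists gave overlapping sums. Endothelial markers (10 genes) summed to 2031 to 2664 in mutants and 1456 to 2830 in controls, with Plvap higher past the call rule. Macrophage and leukocyte markers (11 genes) summed to 689 to 1091 in mutants and 595 to 1112 in controls, with 0 called, and podocyte markers (8 genes) to 1605 to 3299 in mutants and 2146 to 8719 in controls. For Rgs11 mutant 3 was the highest and mutant 1 the lowest of the mutants, and control 1 was the highest and control 4 the lowest of the controls. Mutants 1, 2 and 4 were close (859, 874 and 869 normalised reads). Order within a genotype cannot speak to the difference between genotypes, and the part of other cells in the value of Rgs11 was not tested.

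The R12 genes included the most abundant and the least abundant of the 10 genes. Rgs12, a scaffold with several protein interaction domains besides its RGS domain, had 4017, 4270, 3630 and 3874 normalised reads in mutants 1 to 4, against 3971, 4287, 4480 and 4113 in controls 1 to 4. The groups overlapped, with a log2 fold change of -0.09 (SE 0.06); the antisense gene Gm43791 covers 467 bp or 5.5% of its exons, and Mir3097 lies in an intron. Rgs10, which is small and is best known from immune cells, had 109, 106, 93.6 and 111 in mutants 1 to 4, against 117, 150, 109 and 133 in controls 1 to 4. Mutants 1 and 4 overlapped control 3, and the log2 fold change was -0.27 (SE 0.14). Rgs14 was near the limit of detection, with 12, 4, 2 and 3 reads in mutants 1 to 4 and 6, 5, 0 and 2 in controls 1 to 4, and no fold change is given for it.

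Rgs19, the RZ member, had 749, 890, 721 and 780 normalised reads in mutants 1 to 4, against 871, 871, 973 and 810 in controls 1 to 4. Mutant 2 lay among the controls, and the log2 fold change was -0.17 (SE 0.08). Rgs3, Rgs10, Rgs12 and Rgs19 thus all had negative log2 fold changes of small size, between -0.27 and -0.09.

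Rgs11 was among the more abundant RGS genes in mutants and among the less abundant in controls. Per kb of annotated exon it ranked 4 of the 10 genes in mutants, at 218 ± 24.3 normalised reads per kb, and 8 of the 10 in controls, at 17.8 ± 1.40 (SD, n = 4 each). In mutants it came after Rgs12 at 465 ± 31.6, Rgs19 at 352 ± 33.3 and Rgs2 at 344 ± 88.1, and just before Rgs3 at 200 ± 11.3 (SD, n = 4 each). In mutants the ranges of the neighbours Rgs19 and Rgs2 overlapped, as did those of Rgs11 and Rgs3. In controls the order was Rgs12 (496 ± 25.9), Rgs19 (395 ± 30.3), Rgs2 (322 ± 45.0), Rgs3 (241 ± 17.6), Rgs10 (74.3 ± 10.7), Rgs5 (65.5 ± 27.1), Rgs16 (27.3 ± 14.8), Rgs11, Rgs4 (5.90 ± 3.59) and Rgs14 (0.746 ± 0.634). Neighbours in that order whose ranges overlapped were Rgs19 with Rgs2, Rgs10 with Rgs5, Rgs5 with Rgs16, Rgs16 with Rgs11, and Rgs4 with Rgs14. By the length of the longest coding transcript instead of all annotated exons, Rgs11 ranked 4 in mutants and 7 in controls. The order around it in mutants then changed, with Rgs3 (460 normalised reads per kb) just before Rgs11 (458) and Rgs2 (413) after it.

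The 10 genes summed to 1746 ± 100 normalised reads per kb in mutants and 1646 ± 80.9 in controls (SD, n = 4 each). Rgs11 supplied 12.5 ± 1.43% of that sum in mutants and 1.08 ± 0.114% in controls (SD, n = 4 each). Without Rgs11 the sum was 1528 ± 99.6 in mutants and 1628 ± 81.3 in controls (SD, n = 4 each), with overlapping libraries.

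Beyond the 10 genes, a list of 21 other genes with an RGS domain held 14 that were tested, of which 1 rose and 0 fell (7.14%, against 8.43% of all tested genes), with a median log2 fold change of -0.03. The gene that rose was Rgs22, best known from testis. It had 33.2, 26.9, 34.2 and 37.8 normalised reads in mutants 1 to 4, against 15.5, 16.7, 8.35 and 6.72 in controls 1 to 4. Every mutant was above every control, and the rise was 2.80-fold (log2 1.49, SE 0.31, limma adjusted p = 0.0126). It was not called without mutant 4 (adjusted p = 0.0526) or without control 3 and mutant 2 together (adjusted p = 0.0515). At these levels the transcript is rare, at 5.83 ± 0.804 normalised reads per kb in mutants and 2.09 ± 0.886 in controls (SD, n = 4 each).

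Of the remaining tested Rgs genes, Rgs17, an RZ gene, was at 26.4 ± 6.40 normalised reads in mutants and 17.5 ± 8.24 in controls (SD, n = 4 each, log2 0.64, SE 0.33, limma adjusted p = 0.278). Rgs8, an R4 gene known from brain, was at 9.34 ± 4.30 in mutants and 10.1 ± 3.13 in controls (SD, n = 4 each, limma adjusted p = 0.855). Rgs1, Rgs7, Rgs18 and Rgs20 were below the filter. Rgs1, a leukocyte gene, was highest in mutant 1 at 16.1 normalised reads and in control 2 at 12.8, which had the highest leukocyte marker sums of their genotypes, 1091 and 1112. Mutant 1 and control 2 also had the highest endothelial sums (2664 and 2830) and podocyte sums (3299 and 8719) of their genotypes. The part of leukocytes or of other cells in Rgs1 was not tested.

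The G proteins on which RGS proteins act, and the enzymes around them, were counted in 6 fixed lists (R7 partners, G alpha subunits, G beta and gamma subunits, G alpha regulators without an RGS domain, receptor kinases with arrestins, and effectors). Of 73 listed genes 62 were tested, of which 3 rose and 2 fell, or 8.06% against 8.43% of all tested genes. The 5 called genes were Adcy8, Grk5, Gng2, Gnao1 and Gnb4, and the largest of their changes was the 1.49-fold rise of Adcy8.

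Among the subunits, 1 of 14 tested G alpha genes fell and 0 rose, with a median log2 fold change of -0.05. That gene was Gnao1, which encodes Go, a substrate of R7 proteins in neurons. It had 594, 626, 604 and 633 normalised reads in mutants 1 to 4, against 742, 833, 727 and 708 in controls 1 to 4. All mutants were below all controls (log2 -0.29, SE 0.07, limma adjusted p = 0.0286), but the call was lost in 5 of 8 fits that left out 1 library (without mutant 1, 2, 3 or 4, or without control 2), with adjusted p up to 0.0874. It was also lost without control 3 and mutant 2 together (0.08), without control 2 and mutant 2 together (0.15) and with the deposited values as they are (0.175). Gna13, of the G12 class, was at 4408 ± 155 in mutants and 3865 ± 296 in controls (SD, n = 4 each, limma adjusted p = 0.0927), and Gnai2, a widely expressed Gi subunit gene, at 11020 ± 854 in mutants and 12629 ± 671 in controls (SD, n = 4 each, limma adjusted p = 0.106). Neither was called.

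Of 13 tested G beta and gamma genes, 1 rose and 1 fell, with a median log2 fold change of 0.01. Gnb4 fell, with 673, 674, 712 and 647 normalised reads in mutants 1 to 4, against 899, 829, 966 and 862 in controls 1 to 4. The groups were well apart (log2 -0.39, SE 0.07, limma adjusted p = 0.00462), and Gnb4 was called under all 21 alternatives tried. Gng2 rose, at 6995 ± 522 in mutants and 5656 ± 404 in controls (SD, n = 4 each, log2 0.31, SE 0.07, limma adjusted p = 0.0201). The Gng2 call was lost without mutant 4, without control 2 and without control 3, with adjusted p up to 0.0681, and when libraries were scaled by total reads (0.0519). It was lost as well without control 3 and mutant 2 together (0.104), without control 2 and mutant 2 together (0.125) and with the deposited values as they are (0.118). Gng11 was at 241 ± 28.9 in mutants and 176 ± 26.2 in controls (SD, n = 4 each) and was not called (limma adjusted p = 0.0763).

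The regulators of G alpha that lack an RGS domain gave 0 called genes of 9 tested by limma, with 0 at an unadjusted p under 0.05 and a median log2 fold change of 0.07. The smallest adjusted p-values there were 0.407 for Gpsm3, 0.413 for Ccdc88c and 0.418 for Gpsm2. Of 8 receptor kinase and arrestin genes, 1 rose and 0 fell, with a median of -0.07. Grk5, a kinase that phosphorylates active receptors, had 572, 570, 645 and 624 normalised reads in mutants 1 to 4, against 474, 482, 410 and 484 in controls 1 to 4. The groups did not overlap (log2 0.38, SE 0.08, limma adjusted p = 0.0152), and the call was lost without mutant 3 and without mutant 4, with adjusted p up to 0.0608, without control 2 and mutant 2 together (0.052) and with the deposited values as they are (0.139). The kinase genes Adrbk1 and Adrbk2, now called Grk2 and Grk3, were not called (limma adjusted p = 0.193 and 0.248).

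Of 14 tested effector genes, 1 rose and 0 fell, with a median log2 fold change of -0.06. Adcy8, a calcium-stimulated adenylyl cyclase, had 1505, 1774, 1702 and 1566 normalised reads in mutants 1 to 4, against 982, 1087, 1225 and 1090 in controls 1 to 4. It rose 1.49-fold (log2 0.58, SE 0.08, limma adjusted p = 0.000785) and was called under all 21 alternatives tried. Plcb3, a phospholipase downstream of Gq, and Adcy2 were not called (limma adjusted p = 0.096 and 0.186).

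**Figure D5:**
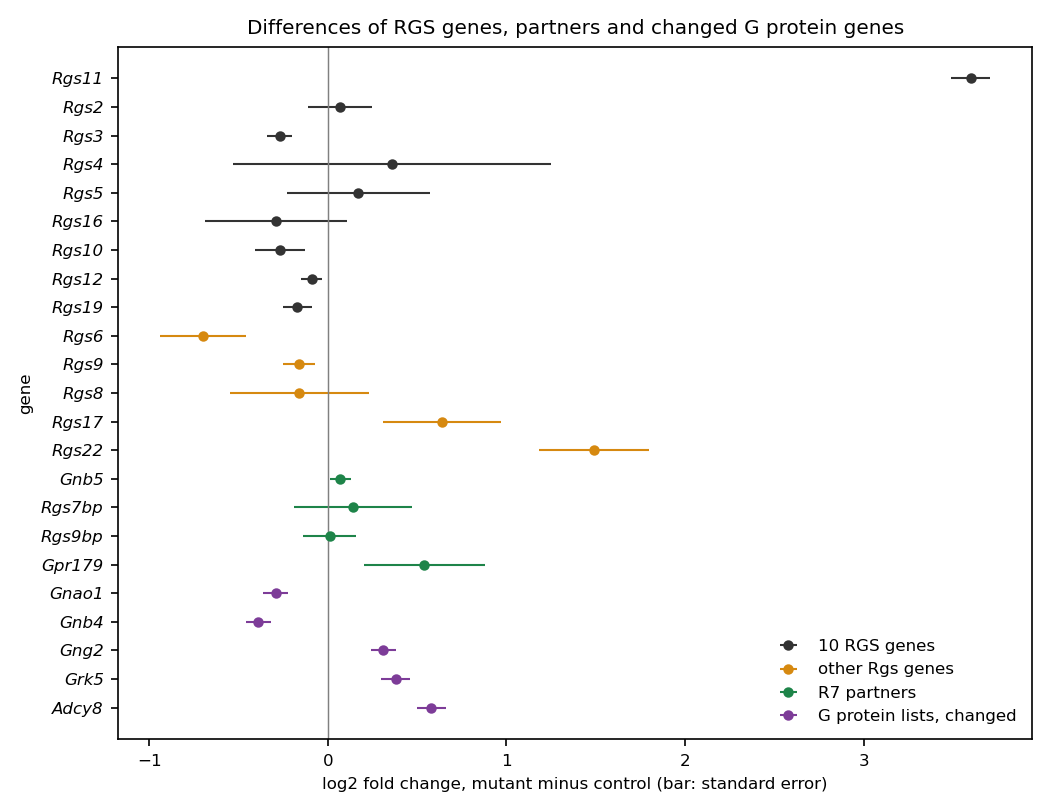
Log2 fold change, mutant minus control, with its standard error from the fit over all genes, for the 9 tested RGS genes of the set (dark), the other tested Rgs genes (orange), the tested R7 partners (green) and the 5 pathway genes that passed the test (purple). Rgs11 at 3.60 lies far to the right, Rgs22 at 1.49 is next, and the other genes lie between -0.70 and 0.64.

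The 5 genes whose pattern over the 8 libraries was most like that of Rgs11 were Slc2a3, Fcgbp, Pfkp, Bnip3 and Cox4i2. Likeness was the root mean square difference of log2(normalised reads + 1), centred per gene, and it was 0.12, 0.15, 0.17, 0.22 and 0.25 for these genes in that order; the next gene was at 0.26 and the median of all tested genes at 1.81. The measure rests on the size of the difference between the genotypes, so it finds genes with about the same fold change. Slc2a3, a glucose transporter gene, was at 4124 ± 162 normalised reads in mutants and 328 ± 36.2 in controls (SD, n = 4 each). Pfkp, a phosphofructokinase gene of glycolysis, was at 4420 ± 312 in mutants and 372 ± 40.9 in controls, and Bnip3, a mitophagy receptor gene, at 18747 ± 392 in mutants and 1930 ± 168 in controls (SD, n = 4 each). Cox4i2, a respiratory subunit gene of hypoxic cells, was at 950 ± 38.4 in mutants and 63.8 ± 12.6 in controls, and Fcgbp, which encodes a mucus protein, at 461 ± 36.8 in mutants and 36.6 ± 3.98 in controls (SD, n = 4 each). Within the mutants the order differed: mutant 3, the highest for Rgs11 at 1071, was the lowest for Bnip3 at 18324 and for Cox4i2 at 894.

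Promoter windows of 250 bases before to 50 after the start were searched, on both strands, for ACGTG and GCGTG, the letters at the core of the hypoxia response element. In the RefSeq table for GRCm38.p6, 8 of the 10 genes had an entry, with 12 windows in all, and Rgs11 and Rgs14 did not. One or both motifs were found in 5 of the 12 windows (41.7%), those of Rgs2, Rgs4, Rgs16 and Rgs19, against 43.8% of 32851 promoters in the table (19.6% with ACGTG and 32.4% with GCGTG). A match describes letters in a window and is not a binding site.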

How the data were processed

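Polyadenylated RNA of sorted cells was sequenced from stranded libraries, per the labels' protocols. STAR 2.5.3a, DESeq2 1.18.1 and mm10 are named in the submitters' processing notes; for the read counter, annotation and strand setting the sources used here name nothing. The deposited signal per gene and library is, from the values themselves, reads divided by size factors, divided again by the same 8 factors recycled down the genes, and rounded. Both divisions were undone: whole reads rebuilt the deposited mean within a relative tolerance of 1e-09 for 20254 of 20254 genes. The authors' deposited log2 fold changes and p-values served as an alternative, and the deposited Wald score was not used.

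Normalised reads (divided once) were put on log2(value + 1) and compared with limma 3.58.1 in R 4.3.3 (trend, robust, two-sided, no covariate) for genes with at least 10 in at least 4 libraries. The script was tested on simulated data. SDs are of normalised reads, and depth limits the precision of genes with few reads. Coordinates are from GENCODE M21, and levels per kb use the union of annotated exons.

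The members and lists were chosen with earlier results of these data known. Named genes were Vhl, the 10 RGS genes, each tested Rgs gene and R7 partner, called genes of the other lists (with the smallest adjusted p up to 3), the 5 most like Rgs11, and genes overlapping or next to members; others are said to be picked afterwards or stand for a marker list, and the result of 1 marker gene is not reported here. The count models planned as alternatives (edgeR, DESeq2 and limma-voom with TMM) were not run. A signal, not counts, was deposited, although whole reads were recovered from it for every gene. On the recovered whole reads, limma-voom was run with the authors' size factors and with scaling by total reads.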

Additional observations from a re-analysis of the deposited data

Results flagged for a closer look

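Among 44 named genes, giving 88 groups of 4 libraries, 5 groups had a library whose gap to its nearest neighbour exceeded Dixon's 95% critical share of the group's range for 4 samples; chance flags about 1 group in 20. For Rgs11, mutant 3 was the highest of the mutants at 1071 normalised reads, with 859 to 874 in the other mutants (gap over range 0.932). For Gnb5, mutant 1 was the lowest of the mutants at 979, with 1038 to 1045 in the others (0.89). For Fcgbp, mutant 1 was the lowest of the mutants at 406, with 475 to 486 in the others (0.863). For Gnai2, control 1 was the lowest of the controls at 11625, with 12915 to 13034 in the others (0.915). For Grk5, control 3 was the lowest of the controls at 410, with 474 to 484 in the others (0.857).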

How the results depend on the processing

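The log2 fold change of Rgs11 was between 3.52 and 3.64 under 21 alternatives. Signs changed for Rgs2 in 4 of 21, Rgs4 in 3 of 20, Rgs5 in 1 of 21 and Rgs16 in 2 of 21, and in none for Rgs3, Rgs10, Rgs12 and Rgs19. The number of called genes (1297) was 698 with the deposited values as they are, 2996 with library quality weights, 754 without control 3 and mutant 2, 654 without control 2 and mutant 2, and 771 to 1569 with 1 library left out (771 without mutant 4, 815 without control 4). Scaling by total reads gave 747 higher and 797 lower, and quantile normalisation 757 and 666, against 831 and 466; these were added after seeing the data, as was limma-voom with the authors' size factors (1272 called). For the other RGS-domain genes (1 called), 0 were called with a minimum of 50 normalised reads. That minimum left Rgs22 out of the fit, since its highest value was 37.8 (mutant 4). Of these genes, 4 were called with quality weights, 0 without control 3 and mutant 2, and 0 to 1 with 1 library left out. For the pathway lists (5 called), 2 were called with the deposited values, 15 with quality weights, 2 without control 2 and mutant 2, 2 to 8 with 1 library left out (2 without mutant 4, 3 without mutant 3, 3 without control 2, 8 without control 1) and 10 in the authors' deposited table. Rgs3 was the member that lost the call, with the deposited values, with the replicate block and in the 7 fits without mutant 3, mutant 4, control 2, control 3, control 4 or either pair. The cause was not tested.

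Whether the replicate numbers pair the samples is not in the labels. Deviations of same-numbered libraries correlated at 0.213, -0.143, -0.144 and 0.063, and those of unlike numbers at -0.468 to 0.57. These values cannot settle whether the samples were paired. With a replicate block, 766 genes were called, 1 of the other RGS-domain genes and 2 of the pathway genes. The block left Arhgdig (adjusted p = 0.0749), Gnao1 (0.098), Gng2 (0.0797) and Grk5 (0.0716) uncalled.

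Fits without 1 library asked for the minimum in 3 libraries. The planned edgeR, DESeq2 and limma-voom with TMM fits were not run. Depth limits genes near the minimum, such as Rgs4, Rgs8, Rgs14 and Rgs22.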
